A study of Rattus norvegicus with 12 samples.

Results

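Acute phase plasma proteins were followed in the liver of a rat strain that accumulates copper and develops liver tumors. The set was A2m, Orm1, Hp, Hpx, Crp, Lbp, Serpina3n, Serpina3m, Lcn2 and Saa4, chosen by gene symbol. Of these 10 genes, 9 had a probe set of their own among the 14217 genes named on the array, 1 probe set each. The annotation gave Saa4 only a probe set that it also gives to Hps5, so that probe set is shown under both symbols and no gene is named from it.

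Acute phase proteins are secreted mainly by hepatocytes, and their levels in plasma rise after injury or infection. Interleukin 6 acts through its receptor subunit gp130 and the transcription factor STAT3, and interleukin 1 and tumor necrosis factor act through NF-κB, with C/EBP factors and glucocorticoids taking part at many of the promoters. In rats alpha-2-macroglobulin is a strongly inducible acute phase protein, whereas C-reactive protein circulates at a high level without inflammation. Other plasma proteins, among them albumin and transthyretin, fall in the same response and are called negative acute phase proteins.

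Total RNA was hybridized to 12 Affymetrix rat expression arrays, from 3 µg of RNA each. The Long Evans Cinnamon rat (LEC/Crj) carries a defective copper transporter gene, Atp7b, and no rat in the labels received an agent. At 67 weeks of age there were 4 arrays of LEC tumor tissue and 4 of LEC nontumor liver, each made from mixed RNA of 2 pairs picked at random among 8 pairs of tumor and adjacent tissue. LEC liver at 4, 26 and 39 weeks and liver of the Long Evans Agouti (LEA) control strain at 67 weeks had 1 array each, made from pooled RNA. All rats were labelled male and kept free of specific pathogens. The nontumor tissue came from the tumor-bearing livers and is not healthy LEC liver, and its label gives the disease status as normal. How many rats went into the single pools is not stated, and neither is whether pools share animals, so p-values measure only the spread between these samples. Precision is limited throughout by how few arrays there are.

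Values are log2 expression values, so that 1 unit is a 2-fold difference, and levels of different probe sets cannot be set against each other. The 12 array medians lay between 7.39 and 7.51. The highest of 27 probe sets for RNA absent from rat tissue lay between 5.52 and 6.22 on the 12 arrays, and the lowest value of the 9 genes was 6.54. The highest probe set of any array lay between 14.32 and 14.59. Hp, Hpx, Orm1, Crp and Serpina3n, at 13.05 to 14.39 on the nontumor arrays, were therefore close to the top of the scale. The probe set shared by Saa4 and Hps5, at 13.13 to 13.34 on the nontumor arrays, lay in the same range. The labelled tissue was checked by 11 measured hepatocyte markers, whose mean lay between 13.32 and 13.59 on the 8 arrays without tumor. Of 3 measured genes of the sex chromosomes, 2 split the arrays against their labels. Xist, which silences an X chromosome in female cells, was at 5.27 on the 26-week and 5.67 on the 39-week array and between 11.36 and 13.12 on the other 10 arrays. Eif2s3y, a gene of the Y chromosome, was at 8.90 on the 26-week and 8.18 on the 39-week array, against 3.65 to 3.81 elsewhere. Uty, annotated as a Y gene, did not follow this split, at 9.84 and 9.68 on those arrays and 9.97 to 10.70 elsewhere. Comparisons of the arrays labelled 26 and 39 weeks with any other array therefore cannot be told apart from this split. Nontumor arrays 1 and 2 also stood apart from 3 and 4 in 18 probe sets for RNA added at hybridization, with means of 10.38 and 10.49 against 9.97 and 9.88. In 8 male-biased liver genes those arrays had means of 8.29 and 7.81 against 10.45 and 10.01.

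The RefSeq promoter table (build GRCr8) held 6 of the 10 genes, and the bases before the start of the 4 genes that passed the tumor test are printed because they show which letters these promoters share and which they do not. Each sequence runs 5′ to 3′ on the gene's strand and ends 1 base before the gene. Capitals mark matches to any of 4 motifs on either strand, namely TTCNNNGAA (STAT), TTNNGNAA or TTNCNNAA (C/EBP), GGG and CC or GG and CCC with any 5 bases between (NF-κB) and TGTTCT or AGAACA (glucocorticoid receptor). The windows are chr6:129088262-129088391 on the plus strand for Serpina3n and chr6:128836845-128836969 on the minus strand for Serpina3m. They are chr13:87693932-87694061 on the plus strand for Crp and chr3:36081852-36081910 on the minus strand for Lcn2.
Serpina3n: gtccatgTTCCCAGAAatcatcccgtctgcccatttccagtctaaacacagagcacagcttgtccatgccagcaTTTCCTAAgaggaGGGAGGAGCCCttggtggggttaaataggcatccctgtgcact
Serpina3m: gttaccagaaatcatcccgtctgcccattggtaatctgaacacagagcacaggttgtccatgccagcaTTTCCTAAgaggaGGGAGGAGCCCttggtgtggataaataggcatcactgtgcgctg
Crp: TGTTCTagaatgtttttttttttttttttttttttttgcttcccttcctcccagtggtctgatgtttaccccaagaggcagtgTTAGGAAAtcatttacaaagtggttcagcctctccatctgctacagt
Lcn2: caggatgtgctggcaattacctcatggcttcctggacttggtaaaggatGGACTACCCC

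The promoters of Serpina3n and Serpina3m shared an unbroken run of 45 bases, from 71 to 27 bases before the start of Serpina3n, which holds a C/EBP and an NF-κB match in both genes. The other 14 pairs among the 6 promoters shared runs of 7 to 10 bases. In the 250 bases of the table before the start, a STAT match was found for Serpina3n, 123 to 115 bases upstream, and for no other of the 6 genes. Of 33469 promoters in the table, 7.67% held the STAT letters, 37.2% the C/EBP letters, 42.3% the NF-κB letters and 17.5% the glucocorticoid receptor letters. A C/EBP match was present for all 6 genes, and NF-κB matches for Orm1, Serpina3n, Serpina3m and Lcn2. The 2 NF-κB forms overlap by construction, so a single stretch can match both. Matches are letters in a window and do not show binding.

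In tumor tissue 3 of the 9 genes were lower than in nontumor LEC liver (Serpina3m, Crp and Serpina3n), 1 was higher (Lcn2) and 5 did not pass the test (Orm1, Hpx, Hp, Lbp and A2m). The test was limma's moderated test with Benjamini-Hochberg adjustment over all probe sets and a threshold of 0.05, and differences are given ± standard error. By the same test 29.2% of all genes were lower in tumor and 38.8% higher, 67.9% in either direction, so that 4 called of 9 is no larger a share than among genes at large. The median difference of the 9 genes was -1.32, and that of all genes was 0.07. The tissue was analysed in bulk, so fewer cells of a type and less RNA per cell cannot be told apart.

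**Figure D1:**
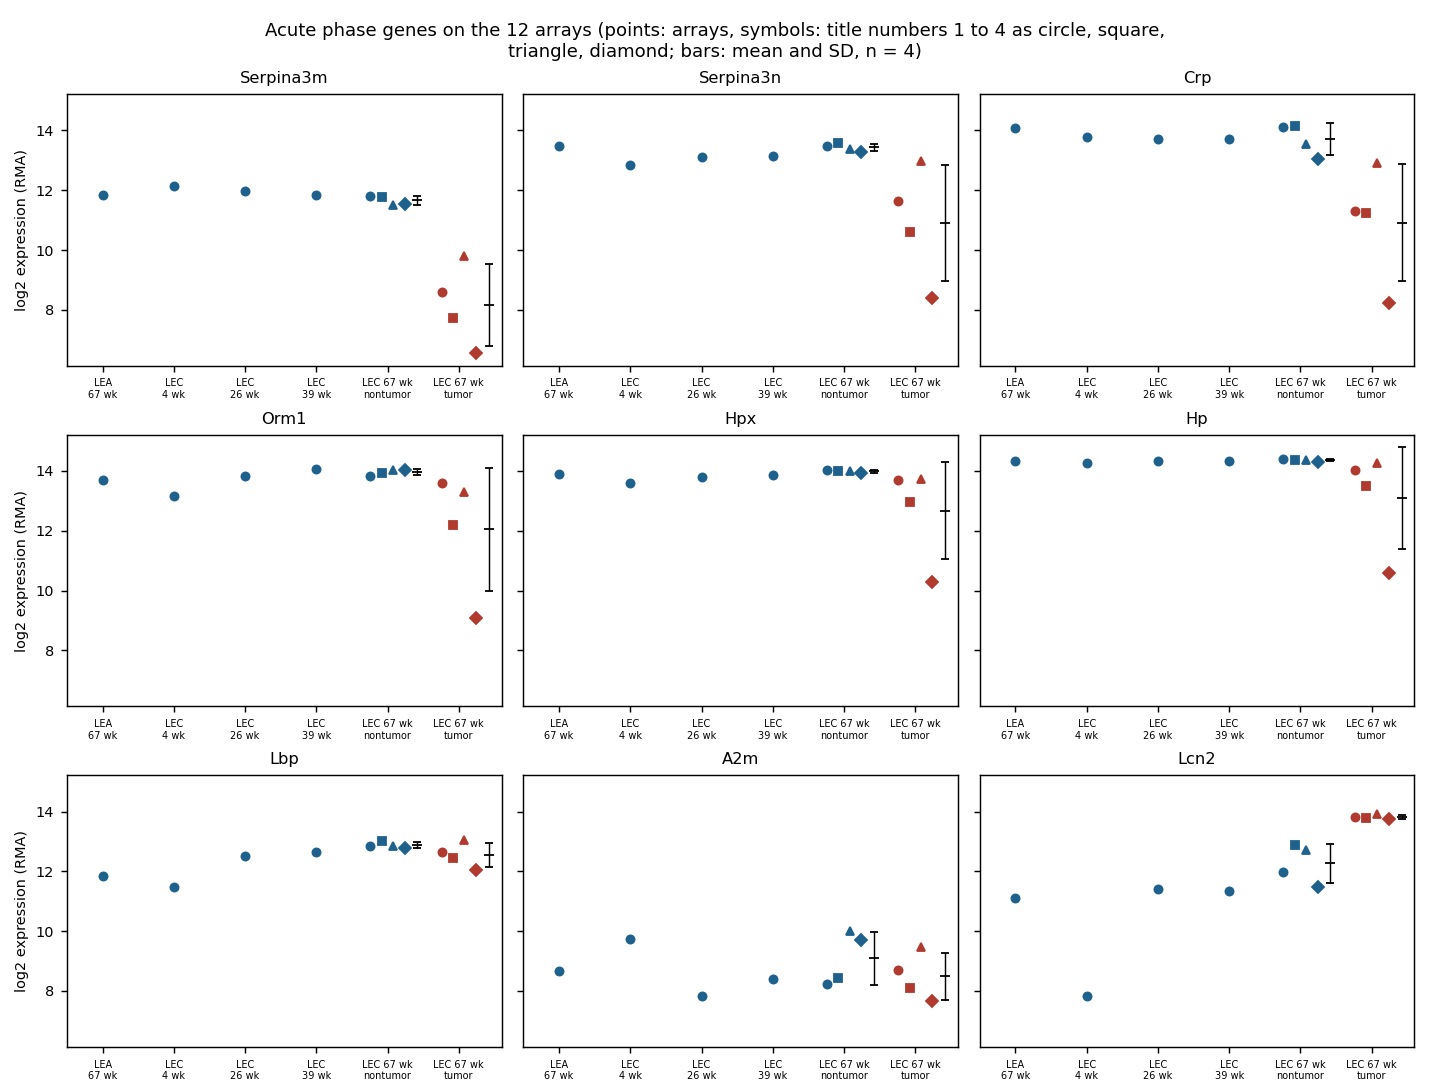
Level of each of the 9 genes on every array, in log2 expression units on a common vertical scale, with groups along the horizontal axis; symbols give title numbers and bars the mean and SD of 4 arrays. The tumor arrays of Serpina3m lie between 6.54 and 9.81, all below the nontumor arrays, whereas those of Lcn2 lie between 13.75 and 13.93, all above.

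Serpina3m and Serpina3n belong to the rat relatives of human alpha-1-antichymotrypsin, a family of secreted inhibitors of serine proteases. Serpina3m was at 11.82, 11.79, 11.52 and 11.53 on nontumor arrays 1 to 4 and at 8.61, 7.74, 9.81 and 6.54 on tumor arrays 1 to 4. Every tumor array lay well below every nontumor array, with tumor array 3 nearest to them. Its group means were 8.17 ± 1.38 (SD, n = 4) in tumor and 11.66 ± 0.16 (SD, n = 4) in nontumor liver, and it fell by 3.49 ± 0.57 (11.2-fold lower, limma adjusted p = 0.000839). Without tumor array 4 the difference was -2.95 and without tumor array 3 it was -4.04.

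Serpina3n was at 13.48, 13.57, 13.39 and 13.28 on the nontumor arrays and at 11.64, 10.62, 12.97 and 8.39 on the tumor arrays. The groups did not overlap, but tumor array 3 came within reach of the nontumor values while tumor array 4 was far below. It fell by 2.53 ± 0.80 (5.77-fold lower, limma adjusted p = 0.0214), from 13.43 ± 0.13 to 10.90 ± 1.93 (SD, n = 4 each). The call was lost without tumor array 2, with an adjusted p of 0.0522, and the difference was -1.69 without tumor array 4 and -3.22 without tumor array 3. The Serpina3 genes of rats are close copies of each other, so a probe set given to a single one may also bind RNA of another. A further copy on the array, Serpina3c, fell by 2.70 (limma adjusted p = 0.0309).

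Crp encodes C-reactive protein, a pentraxin that binds phosphocholine on bacteria and dying cells. It was at 14.13, 14.15, 13.54 and 13.05 on the nontumor arrays and at 11.29, 11.23, 12.91 and 8.24 on the tumor arrays. Tumor arrays 1 and 2 were alike, tumor array 3 lay just below nontumor array 4, and tumor array 4 was the lowest. Crp fell by 2.80 ± 0.83 (6.97-fold lower, limma adjusted p = 0.0165), from 13.72 ± 0.52 to 10.92 ± 1.95 (SD, n = 4 each). The difference was -1.91 without tumor array 4 and -3.47 without tumor array 3. Against nontumor arrays 3 and 4 alone it was -2.38 and did not pass the test (adjusted p = 0.109). Among relatives of these genes, Apcs, the other short pentraxin, fell by 2.74 ± 0.59 (limma adjusted p = 0.00367).

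Orm1, Hpx and Hp are abundant carrier proteins of plasma: orosomucoid binds drugs and lipids, hemopexin binds heme, and haptoglobin binds free hemoglobin. None of these genes passed the test, although for each of them every tumor array lay below every nontumor array. Such a separation was seen for 6 of the 9 genes, the 3 called lower and these, and for 27.7% of all genes. The reverse, with every tumor array above, was seen for Lcn2 and for 36.1% of all genes.

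Orm1 was at 13.84, 13.93, 14.05 and 14.02 on the nontumor arrays and at 13.59, 12.19, 13.31 and 9.10 on the tumor arrays. Tumor array 1 lay close to the nontumor arrays and tumor array 4 was 29.1-fold below their mean. The difference was -1.91 ± 0.85 (limma adjusted p = 0.0759). It passed without tumor array 1 (-2.43, adjusted p = 0.0404), without tumor array 3 (-2.33, adjusted p = 0.0487) and without tumor array 4, where it was -0.93 with less spread (adjusted p = 0.0278).

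Hpx was at 14.05, 13.99, 14.01 and 13.93 on the nontumor arrays and at 13.71, 12.95, 13.73 and 10.29 on the tumor arrays. Tumor arrays 1 and 3 were slightly below nontumor liver, tumor array 2 lower, and tumor array 4 was 13.1-fold below the nontumor mean. Its difference was -1.32 ± 0.67 (limma adjusted p = 0.113), and without tumor array 4 it was -0.53 and passed (adjusted p = 0.0383). Hp was at 14.39, 14.36, 14.38 and 14.31 on the nontumor arrays and at 14.04, 13.49, 14.26 and 10.59 on the tumor arrays. The order of the tumor arrays was that of Hpx, and tumor array 4 was 13.6-fold below the nontumor mean. The difference of Hp was -1.26 ± 0.70 (limma adjusted p = 0.143), and without tumor array 4 it was -0.43 (adjusted p = 0.0572). Both genes lay near the top of the scale in nontumor liver, and its part in the size of their differences was not tested.

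Lbp encodes the lipopolysaccharide binding protein, which passes bacterial lipopolysaccharide to CD14 and the receptor TLR4. It was at 12.85, 13.03, 12.84 and 12.79 on the nontumor arrays and at 12.66, 12.44, 13.03 and 12.04 on the tumor arrays. The groups overlapped, since tumor array 3 was as high as the highest nontumor array. The difference was -0.33 ± 0.18 (limma adjusted p = 0.143), and without tumor array 3 it was -0.49 and passed (adjusted p = 0.0189). Without tumor array 4 it was -0.16 (adjusted p = 0.34).

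A2m encodes alpha-2-macroglobulin, an inhibitor that traps proteases of all classes. It was at 8.23, 8.44, 9.99 and 9.70 on the nontumor arrays and at 8.69, 8.11, 9.47 and 7.66 on the tumor arrays. The nontumor arrays fell into a low pair, 1 and 2, and a high pair, 3 and 4, and the tumor arrays overlapped the low pair and lay below the high pair. The difference was -0.61 ± 0.49 (limma adjusted p = 0.299). Its direction depended on the nontumor arrays used: it was 0.15 against arrays 1 and 2 alone and -1.36 against arrays 3 and 4 alone. These pairs were chosen after the values were seen and are the low and high pair of A2m itself. A shift of the difference between them was therefore fixed by that choice. The same pairs differ in the hybridization controls and the male-biased genes given above, and the part of either in the A2m values was not tested. Unlike A2m, other members of the macroglobulin family passed: Pzp fell by 2.71 ± 0.98 (limma adjusted p = 0.0363) and Mug1 fell by 4.63 ± 0.96 (limma adjusted p = 0.00285).

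The probe set given to both Saa4 and Hps5 was at 13.34, 13.34, 13.15 and 13.13 on the nontumor arrays and at 11.26, 9.70, 12.05 and 6.95 on the tumor arrays. Its tumor arrays stood in the same order as those of Serpina3n, and whether the signal is that of the serum amyloid gene was not tested.

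Across the 9 genes tumor array 4 was the lowest tumor array for 9 and tumor array 3 the highest for 8, the exception being Orm1 with tumor array 1. The hepatocyte marker mean stood in the same order, with 12.33, 11.39, 12.90 and 9.64 on tumor arrays 1 to 4. Of the 11 hepatocyte markers 9 were lower in tumor and 0 higher, with a median difference of -2.13. Tat, an enzyme of tyrosine breakdown, fell by 3.95 ± 0.87 (limma adjusted p = 0.00388), and Pck1, an enzyme of glucose synthesis, fell by 2.37 ± 0.79 (limma adjusted p = 0.0273). The part of the hepatocyte share in the differences of the 9 genes was not tested.

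**Figure D2:**
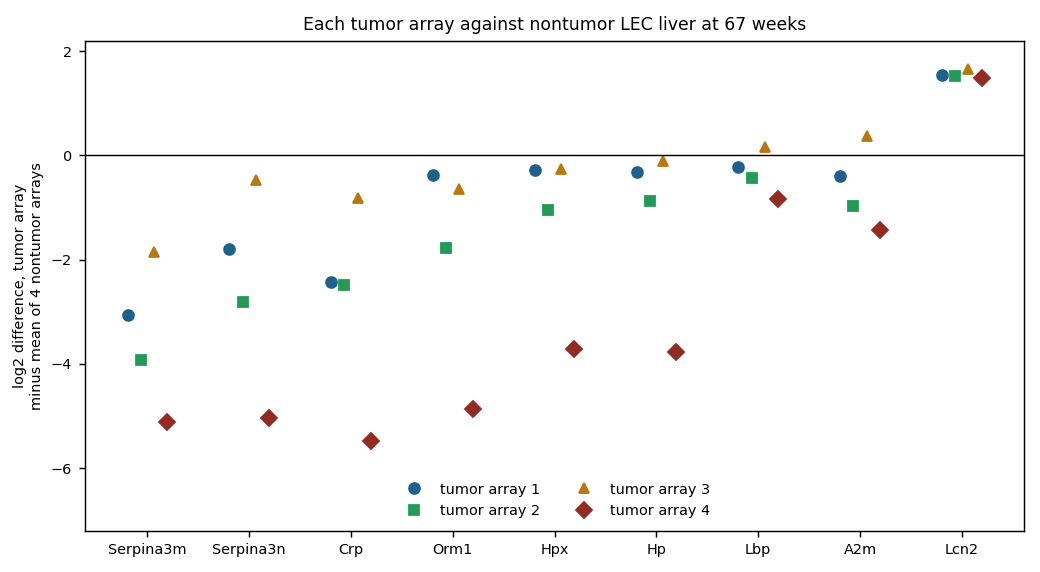
Log2 level of each tumor array minus the mean of the 4 nontumor arrays, for each of the 9 genes; symbols tell the 4 tumor arrays apart. Tumor array 4 is lowest for every gene, at -5.48 for Crp, whereas the 4 arrays lie together for Lcn2, between 1.48 and 1.66.

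**Figure D3:**
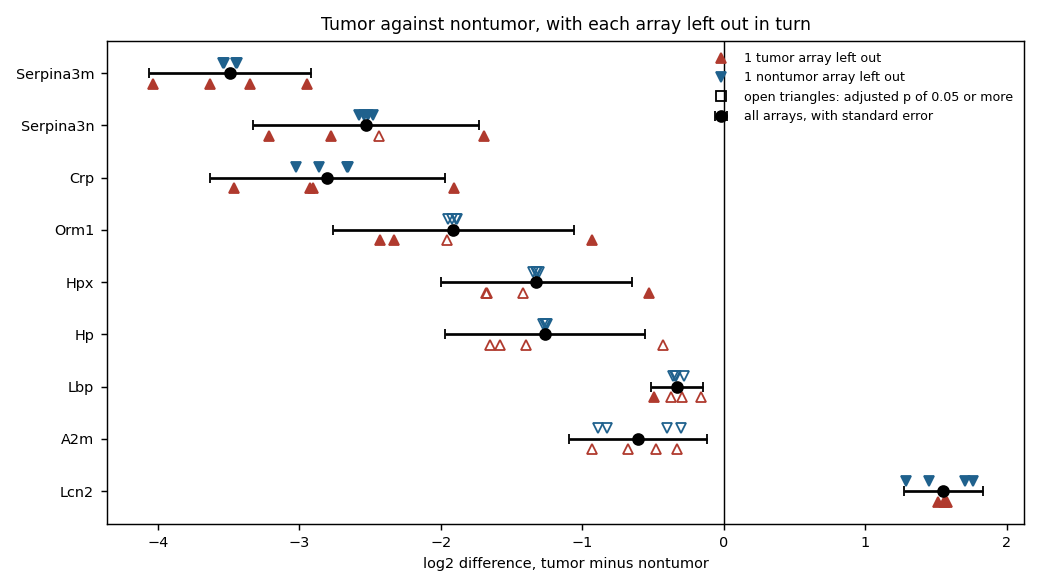
Log2 difference, tumor minus nontumor, of each gene over all arrays (black point with standard error) and with 1 tumor or 1 nontumor array left out (triangles; open where the adjusted p was 0.05 or more). Serpina3m, Crp and Lcn2 keep filled triangles throughout, and Orm1 moves from -2.43 to -0.93.

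Lcn2 was the gene of the set that was higher in tumor. It encodes lipocalin 2, which withholds bacterial iron carriers and is made by neutrophils and by stimulated epithelial cells, including hepatocytes. It was at 11.97, 12.89, 12.73 and 11.49 on the nontumor arrays and at 13.81, 13.79, 13.93 and 13.75 on the tumor arrays. All tumor arrays lay above all nontumor arrays and close to each other, whereas the nontumor arrays were spread out. The tumor arrays were in the range described above as close to the top of the scale, and its part in their small spread and in the fold was not tested. Lcn2 rose by 1.55 ± 0.28 (2.93-fold higher, limma adjusted p = 0.00135), from 12.27 ± 0.66 to 13.82 ± 0.08 (SD, n = 4 each). It kept its call with each array left out, with differences between 1.29 and 1.76.

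Markers of cells that can hold Lcn2 were examined beside it. Of 7 measured neutrophil markers 3 were higher in tumor and 0 lower, a share of higher calls close to the 38.8% of all genes: S100a8 rose by 1.25 ± 0.29 (limma adjusted p = 0.00505), Csf3r by 0.85 ± 0.25 (limma adjusted p = 0.0166) and S100a9 by 0.71 ± 0.25 (limma adjusted p = 0.0322). The median difference of the neutrophil markers was 0.08, and their mean level was 7.25 to 7.48 on nontumor arrays and 7.48 to 8.08 on tumor arrays. Camp and Mmp8, proteins of neutrophil granules, stayed within or under the range of absent RNA on all 12 arrays. All 8 measured bile duct and progenitor markers were higher in tumor, with a median difference of 3.73; Krt7 rose by 4.61 ± 0.19 (limma adjusted p = 9.75e-07) and Krt19 by 4.41 ± 0.41 (limma adjusted p = 3.72e-05). The mean of the bile duct markers was 7.85 to 8.93 on nontumor arrays and 11.73 to 11.93 on tumor arrays. The part of either cell type in the rise of Lcn2 was not tested. Saa3, an inducible serum amyloid A gene that is also made outside hepatocytes, rose in tumor by 2.51 ± 0.22 (limma adjusted p = 2.45e-05), with tumor arrays between 9.15 and 10.03 and nontumor arrays between 6.74 and 7.30.

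**Figure D4:**
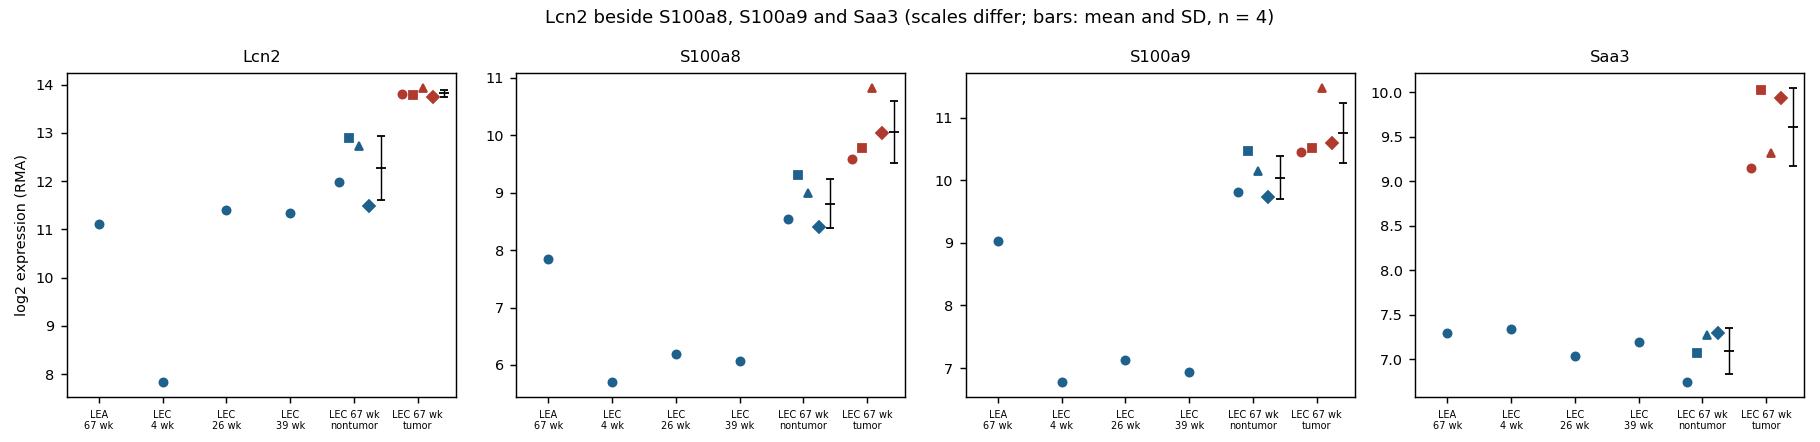
Log2 levels of Lcn2, S100a8, S100a9 and Saa3 on every array, each on its own vertical scale, with bars for the mean and SD of 4 arrays. Lcn2 is at 7.83 on the 4-week array and above 11 on all others; Saa3 is above 9 on the 4 tumor arrays alone.

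Receptors and binding partners of the set differed in both directions. Of 16 measured, 4 were higher and 8 lower in tumor (38.8% and 29.2% of all genes), with a median difference of -0.35. For the hemoglobin and heme carriers, Cd163, the macrophage receptor of haptoglobin bound to hemoglobin, fell by 1.15 ± 0.13 (limma adjusted p = 8.49e-05). Of 10 measured macrophage markers, Cd163 among them, 4 were higher in tumor and 3 lower, with a median difference of 0.22. The heme oxygenase Hmox1 fell by 1.78 ± 0.27 (limma adjusted p = 0.000574) and the biliverdin reductase Blvrb fell by 1.91 ± 0.17 (limma adjusted p = 2.47e-05). For Lbp, Cd14 rose by 0.54 ± 0.12 (limma adjusted p = 0.00377) and Tlr4 by 0.63 ± 0.17 (limma adjusted p = 0.0114). Mmp9, a protease that forms a complex with lipocalin 2, rose by 0.94 ± 0.16 (limma adjusted p = 0.00106). Its nontumor mean of 5.97 lay within the highest values for absent RNA on those arrays (5.88 to 6.01). Fcgr1a, an immunoglobulin receptor that also binds C-reactive protein, rose by 0.85 ± 0.13 (limma adjusted p = 0.000665). Klkb1, plasma kallikrein, fell by 3.72 ± 0.82 (limma adjusted p = 0.00398).

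Most other plasma proteins of the acute phase, positive and negative, were called lower in tumor, as were 29.2% of all genes, with 38.8% higher. Of 25 other positive acute phase proteins measured, 19 were lower, 2 higher and 4 not called, with a median difference of -2.72. Mbl2, mannose binding lectin, fell by 3.90 ± 1.02 (limma adjusted p = 0.00915) and Azgp1 fell by 3.52 ± 0.76 (limma adjusted p = 0.00368), whereas Lrg1 rose by 0.63 ± 0.22 (limma adjusted p = 0.0297). Of 17 negative acute phase proteins measured, 13 were lower, 0 higher and 4 not called, with a median of -2.59. Serpina6, which carries corticosteroids, fell by 4.60 ± 0.78 (limma adjusted p = 0.00101) and Apoa4 fell by 3.22 ± 0.72 (limma adjusted p = 0.0042).

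**Figure D5:**
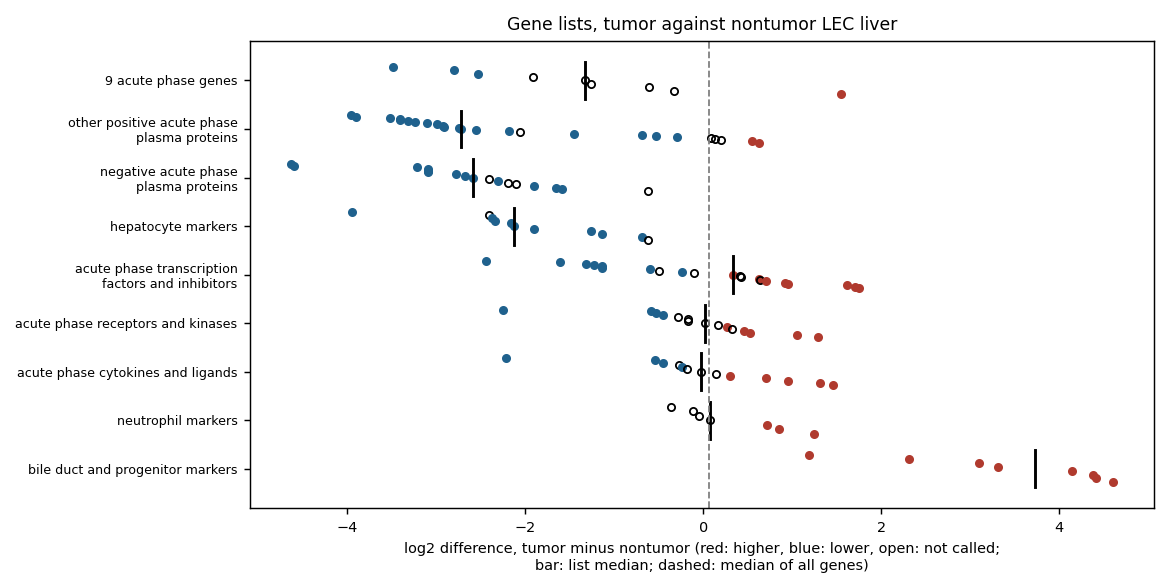
Log2 difference, tumor minus nontumor, of every measured gene of each list (red called higher, blue called lower, open not called), with a bar at the median of the list and a dashed line at the median of all genes. Positive acute phase proteins (median -2.72), negative ones (-2.59) and hepatocyte markers (-2.13) lie to the left, and bile duct and progenitor markers (3.73) to the right.

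For the signals that act on these genes, the counts of calls lay near those of genes at large, of which 38.8% were higher and 29.2% lower. Of 13 cytokines and other ligands measured, 5 were higher and 4 lower. Tgfb1 rose by 1.32 ± 0.10 (limma adjusted p = 1.22e-05) and Il1a, interleukin 1 alpha, fell by 2.21 ± 0.16 (limma adjusted p = 1.16e-05). Il1b, Il6 and Tnf were named after their values were seen, as inducers described above. Il1b rose by 0.70 (limma adjusted p = 0.0462). Il6 rose by 0.31 (limma adjusted p = 0.0311) but with group means of 4.95 and 5.25, below the highest probe set for absent RNA. Tnf overlapped between the groups, with tumor arrays between 8.22 and 8.36 and nontumor arrays between 7.96 and 8.29. Clcf1 rose by 1.45 ± 0.14 (limma adjusted p = 4.1e-05), from a mean of 4.36 to 5.81, little above the highest probe set for absent RNA on the tumor arrays (5.52 to 5.67).

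Of 15 receptors and kinases measured, 5 were higher and 4 lower. Jak2, a kinase of the gp130 pathway, rose by 1.05 ± 0.11 (limma adjusted p = 8.45e-05) and Il6st, which encodes gp130, by 0.52 ± 0.14 (limma adjusted p = 0.0107). Il1rap, the accessory subunit of the interleukin 1 receptor, fell by 2.25 ± 0.36 (limma adjusted p = 0.000765). Il1r2, a decoy receptor of interleukin 1, rose by 1.28 ± 0.22 (limma adjusted p = 0.00105), from a mean of 5.12 to 6.41. Its nontumor mean was below the highest probe set for absent RNA on the nontumor arrays (5.88 to 6.01).

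Of 21 transcription factors and inhibitors measured, 8 were higher and 8 lower. Nfkb1 rose by 1.75 ± 0.13 (limma adjusted p = 1.19e-05), its inhibitor Nfkbia by 1.61 ± 0.14 (limma adjusted p = 2.42e-05) and Cebpd by 1.71 ± 0.17 (limma adjusted p = 4.58e-05). Other factors moved the other way: Foxa3 fell by 2.45 ± 0.26 (limma adjusted p = 7.77e-05), Nr1h4 fell by 1.61 ± 0.15 (limma adjusted p = 3.51e-05) and Cebpb fell by 1.32 ± 0.28 (limma adjusted p = 0.00352).

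Nontumor LEC liver was compared with LEA liver at the same age. The nontumor tissue came from tumor-bearing livers and LEA had 1 array, so strain, disease and tumor-bearing state cannot be told apart. Of the 9 genes 0 passed limma's test after adjustment and 2 had an unadjusted p under 0.05; over all genes 0.563% were called, 0.232% higher and 0.331% lower. These were Lbp, at 11.86 in LEA and 12.79 to 13.03 in nontumor LEC liver, with a difference of 1.02 ± 0.29 (limma adjusted p = 0.214), and Lcn2, at 11.11 in LEA and 11.49 to 12.89 in nontumor LEC liver, with a difference of 1.16 ± 0.44 (limma adjusted p = 0.34). The differences of the other 7 genes lay between -0.37 and 0.43. All nontumor arrays lay above the LEA array for 4 genes (20.0% of all genes) and below it for 1 (28.8% of all genes). The standard errors of comparisons with a single array are pooled over tumor and nontumor arrays, and for genes that vary among tumors they are far larger than the nontumor spread: 1.26 for Serpina3n, whose nontumor SD was 0.13. For Lcn2 the reverse holds: its standard error was 0.44, with an SD of 0.66 on nontumor and 0.08 on tumor arrays. Among the pathway genes, Lifr, the receptor subunit of leukemia inhibitory factor, differed by -3.36 ± 0.24 and was lower in nontumor LEC liver (limma adjusted p = 0.000499). Lifr was at 11.47 on the LEA array and at 8.14, 7.95 and 8.07 in LEC liver at 4, 26 and 39 weeks.

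With age, Lcn2 was the gene of the set that passed the test. It was at 7.83 in LEC liver at 4 weeks, 11.39 at 26 weeks, 11.34 at 39 weeks and 11.49 to 12.89 in nontumor liver at 67 weeks. The 4-week array was far below all others, and the arrays at 26 and 39 weeks were close to the lowest nontumor array. The standard error of Lcn2 against 4 weeks is pooled over tumor arrays (SD 0.08) and nontumor arrays (SD 0.66). It is therefore smaller than the nontumor spread alone would give. Nontumor liver at 67 weeks exceeded the 4-week array by 4.44 ± 0.44 (21.6-fold higher, limma adjusted p = 0.00853). It was the 1 gene of the 9 called higher, with 0 called lower, against 0.232% of all genes in each direction (0.464% in either). Of the 7 neutrophil markers 2 were called higher against 4 weeks and 0 lower. Their mean was 6.20 at 4 weeks, 6.27 at 26 weeks, 6.31 at 39 weeks, 7.03 in LEA liver and at least 7.25 in nontumor LEC liver. These were S100a8, which rose by 3.11 (limma adjusted p = 0.0371) and S100a9, which rose by 3.27 (limma adjusted p = 0.0173). Between the 4-week and the 26-week array, S100a8 was at 5.70 and 6.20 and S100a9 at 6.78 and 7.13, whereas Lcn2 was 11.8-fold higher at 26 weeks, with 1 array each and no test. Both S100a8 values lay below the highest probe set for absent RNA on those arrays (6.15 and 6.22). Of the 8 bile duct and progenitor markers 0 were called against 4 weeks. Their mean was 7.70 at 4 weeks, 8.75 at 26 weeks and 8.68 at 39 weeks, and 8.07, 8.75, 8.93 and 7.85 on nontumor arrays 1 to 4. Within this list Krt19 was at 6.54 at 4 weeks and 8.55 at 26 weeks, whereas Krt7 was at 6.67 and 6.48. The nontumor arrays with the higher bile duct means, 2 and 3, were also those with the higher Lcn2 levels. This order was not particular to bile duct markers. The neutrophil marker means were 7.48 and 7.32 on arrays 2 and 3, against 7.25 and 7.26 on arrays 1 and 4. The part of neutrophils or bile duct cells in the Lcn2 level was not tested.

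Lbp was at 11.48 at 4 weeks, 12.53 at 26 weeks, 12.65 at 39 weeks and 12.79 to 13.03 in nontumor liver at 67 weeks. The 4-week array was the lowest of all 12. The difference of 1.40 ± 0.29 between nontumor liver and 4 weeks did not pass (limma adjusted p = 0.0959), but it passed without tumor array 3 (adjusted p = 0.0469) and with array weights (adjusted p = 0.0449). A2m was at 9.74 at 4 weeks, 7.84 at 26 weeks and 8.39 at 39 weeks, within or below the range of 8.23 to 9.99 in nontumor liver. Orm1 was at 13.18 at 4 weeks and between 13.84 and 14.05 on the later LEC arrays without tumor. For 6 of the 9 genes all nontumor arrays lay above the 4-week array (24.6% of all genes), and for 1 below it (24.3%).

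Against the 26-week array 0 of the 9 genes passed limma's test and 0 had an unadjusted p under 0.05, with 0.239% of all genes called. The differences with the smallest adjusted p were 0.87 ± 0.44 for Lcn2 (limma adjusted p = 0.507) and 1.25 ± 0.77 for A2m (limma adjusted p = 0.591). Against the 39-week array 0 passed, 0 had an unadjusted p under 0.05 and 0.155% of all genes were called. Lcn2 differed there by 0.93 ± 0.44 (limma adjusted p = 0.544). From 4 to 26 weeks, with 1 array each, Lcn2 and Lbp were at least 1 log2 unit higher (2.57% of all genes) and A2m at least 1 unit lower (0.563% of all genes). From 26 to 39 weeks 0 of the 9 genes differed by that much, as against 0.0774% of all genes higher and 0.134% lower.

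Over the 8 arrays without tumor, spread differed widely within the set. Hp spanned 0.13 units, Hpx 0.46, Serpina3m 0.61, Serpina3n 0.73, Orm1 0.87 and Crp 1.09. Lbp spanned 1.55, A2m 2.15 and Lcn2 5.06. The 4-week array set much of this: over the other 7 arrays Lcn2 spanned 1.78, Orm1 0.35, Serpina3n 0.47, Hpx 0.25 and Hp 0.08, while A2m still spanned 2.15 and was then the widest. Hp, with the smallest spread, was also nearest to the top of the scale.

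Genes with the most similar profile over the 12 arrays were found by the root mean square difference of centred log2 values, for the 8 genes that spanned over 2 units. Symbols of uncharacterized or predicted genes were passed over. Hp and Hpx were nearest to each other, at 0.11. Nearest to Serpina3n were C9, a complement component, at 0.17 and Hrg, histidine-rich glycoprotein, at 0.18. Nearest to Serpina3m were Gas2 at 0.16 and Ttc36 at 0.17, and nearest to Crp were Serpinc1, which encodes antithrombin, at 0.28 and Hsd17b6 at 0.30. Orm1 had Gc, the vitamin D binding protein, and Ugt2b, both at 0.27. Among the genes compared, Lcn2 had no close neighbour: Sema3c and Dmbt1 were nearest, at 0.80 and 0.81, against 1.67 for the root mean square of its own profile. A2m was likewise distant from its nearest genes, Fosb at 0.50 and Defb1 at 0.52, against 0.76 for its own profile.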

How the data were processed

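The values are the authors' deposited log2 expression values for 31099 probe sets, for which the submitters' processing notes name RMA and R 2.6.1. RMA is a background correction, a quantile normalization between arrays and a summary of the probes of each probe set. It is not stated if all 12 arrays went through it together, and the main results use the values as they are. After 57 control probe sets were left out, 31042 were tested. Of these, 20826 have a single gene in the platform annotation, 436 several and 9780 none listed; 20758 symbols were updated through Entrez identifiers. A gene with several probe sets is represented by the one with the highest mean over the 12 arrays.

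Groups come from sample titles. A linear model with a mean for each group, on all 12 arrays, was run in limma 3.58.1 (lmFit, eBayes; 6 residual and 2.84 prior degrees of freedom) in R 4.3.3, two-sided, with Benjamini-Hochberg adjustment over 31042 probe sets and a threshold of 0.05. Lone arrays are assumed to vary like the replicated groups. On simulated data for tumor against nontumor, with 50 of 31042 probe sets changed at each size, 14, 35, 48 and 49 were recovered at 0.5, 1, 2 and 4 log2 units, with 9 false calls.

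All 10 genes of the set are named. Each other list gives its largest called rises and falls, up to 3 each, between tumor and nontumor. Between nontumor LEC and LEA it gives up to 2 each way. Serpina3c, Il1b, Il6, Tnf, and S100a8, S100a9, Krt7 and Krt19 with age, were added after their values were seen. Some genes that the rule gives are left out of the text. The set, the lists and the rule were chosen with earlier results of these data known. The labels do not say that a title number marks a pair, so the title numbers were not taken as pairs. Same-numbered tumor and nontumor arrays had correlations of 0.05, 0.14, -0.08 and 0.14 between their deviations from group means. With 4 arrays in each group these values cannot decide whether the numbers mark pairs. The alternatives that use nontumor arrays 1 and 2, or 3 and 4, alone were chosen after seeing the data. Motifs were searched in 250 bases before each start in the RefSeq table. Printed sequences hold those of the last 130 bases that lie outside the gene. For Lcn2 these were 59 bases and for Serpina3m 125, because the rest lay inside the annotated gene. The bases searched for these genes therefore include bases inside the gene. Plots used matplotlib 3.10.9 and Python 3.11.15.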

Additional observations from a re-analysis of the deposited data

How the results depend on the processing

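For tumor against nontumor liver, Serpina3m and Lcn2 kept their direction and their call under all 20 alternatives tried. With each array left out in turn, the number of the 9 genes called higher was 1 throughout and the number called lower ranged from 2 to 5. It was 2 without tumor array 2, 4 without tumor array 1 and 5 without tumor array 3 or tumor array 4. Against nontumor arrays 1 and 2 alone, which are the low pair of A2m, the difference of A2m turned to 0.15. Serpina3n lost its call against these arrays (adjusted p = 0.0866). Against arrays 3 and 4 alone Serpina3n (adjusted p = 0.0988) and Crp lost theirs. The cause was not tested, though fewer arrays entered those fits. The title number as a replicate block, used although the numbers were not taken as pairs, left 1 gene called higher and 3 lower and changed no call. Tumor arrays 1, 2 and 4 each correlated best with the nontumor array of their own number. Tumor array 3 correlated best with nontumor array 1 (0.11, against -0.08 with nontumor array 3). The number called higher than at 4 weeks was 2 with array weights, where Lbp joined Lcn2, and 1 to 2 with each array left out. Without tumor array 3, where Lbp also passed, its difference stayed at 1.40 and its standard error fell from 0.29 to 0.21. Without tumor array 4 the standard error was likewise 0.21, but Lbp did not pass. A tumor array has no part in the difference itself. The cause of the change with array weights was not tested. The counts called against LEA liver and against the 26-week and 39-week arrays were 0 under every alternative run for them, and the single arrays in those comparisons limit what could be called: on simulated data 22 of 50 probe sets changed by 1 log2 unit were recovered for nontumor LEC against LEA.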
